A study of Mus musculus with 2 samples.

Results

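The tissue kallikrein Klk1 family was followed through the retinoic acid (RA) response of mouse embryonic stem (ES) cells with and without Utx. The members were defined by gene symbol as Klk1, Egfbp2 and every symbol starting with Klk1b, which gave 14 genes of 22485 named genes and 24 array features of 44397. The family was grouped from these same data, selected on its log2 ratios on both arrays after they had been seen, so its ratios are given as a description with no test. Each array compared untreated cells, labelled with Cy3, with RA-treated cells of the same line, labelled with Cy5. One array held the wild-type line V6.5 and the other held Utx knockout cells, which the labels also place under V6.5. All cells were first held undifferentiated on gelatin in medium with leukaemia inhibitory factor (LIF). The treated cells then spent 48 h in medium that lacked LIF and carried 100 nM RA, so that every value below stands for the joint effect of losing LIF and gaining RA. How the knockout line was made, and from how many clones, was not given in the sources used here. There was 1 array per line and no replicate, so no value has a replicate error.

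Klk1 encodes true tissue kallikrein, a secreted trypsin-like serine protease that releases kinin peptides from kininogen and is abundant in kidney, pancreas and salivary gland. In the mouse the gene has been copied many times, and the Klk1b copies lie beside it in a tight cluster. Several copies are known from the male submandibular gland: Klk1b22, Egfbp2 and Klk1b9 encode the growth factor binding proteins that associate with epidermal growth factor, Klk1b16 encodes gamma-renin, and Klk1b26 encodes a protease that processes prorenin. Klk1b21 and Klk1b27 are known from Leydig cells of the testis. Whether other members are expressed there was not examined here. Klk1b3 and Klk1b4, which encode subunits of the nerve growth factor complex, were not analysed here. Utx, the product of Kdm6a, takes the repressive methyl mark H3K27me3 off histones.

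RefSeq promoter windows were matched by symbol for 12 of the 14 members, all but Egfbp2 and Klk1b7-ps. A window runs from 250 bases before to 50 bases after the annotated start. The last 120 bases before the start are printed here for 8 members, from the plus strand of GRCm38.p6, because they show how alike the promoters of members with very different ratios are. The first 6 lines form 3 such pairs, in each of which the first member was lower after RA and the second was not. For Klk1b26 this holds for the mean of 2 features that disagreed. The last lines are Klk1b8 and the founding gene Klk1, both lower. Capitals mark TTTAAA, a variant of the TATA box, and AGGTCA or its reverse complement, the half-site that retinoid receptors can bind.
Klk1b24, chr7:44188116-44188235: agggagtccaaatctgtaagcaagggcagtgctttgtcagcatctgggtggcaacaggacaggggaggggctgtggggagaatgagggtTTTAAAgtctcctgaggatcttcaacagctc
Klk1b21, chr7:44102172-44102291: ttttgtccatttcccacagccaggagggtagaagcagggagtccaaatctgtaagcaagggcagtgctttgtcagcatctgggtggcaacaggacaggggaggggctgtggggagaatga
Klk1b26, chr7:44012558-44012677: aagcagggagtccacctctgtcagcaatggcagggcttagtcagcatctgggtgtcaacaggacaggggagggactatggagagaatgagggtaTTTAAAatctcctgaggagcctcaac
Klk1b11, chr7:43995757-43995876: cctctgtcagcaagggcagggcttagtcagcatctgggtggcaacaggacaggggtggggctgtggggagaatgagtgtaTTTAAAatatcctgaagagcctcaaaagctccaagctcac
Klk1b5, chr7:44216354-44216473: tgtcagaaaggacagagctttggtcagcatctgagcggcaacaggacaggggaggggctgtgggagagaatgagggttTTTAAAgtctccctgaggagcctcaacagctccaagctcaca
Klk1b9, chr7:43975941-43976060: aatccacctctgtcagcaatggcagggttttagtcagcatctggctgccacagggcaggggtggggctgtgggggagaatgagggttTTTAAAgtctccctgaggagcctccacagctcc
Klk1b8, chr7:43950546-43950665: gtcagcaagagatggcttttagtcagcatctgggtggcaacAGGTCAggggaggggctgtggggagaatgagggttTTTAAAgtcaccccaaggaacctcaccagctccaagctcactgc
Klk1, chr7:44225240-44225359: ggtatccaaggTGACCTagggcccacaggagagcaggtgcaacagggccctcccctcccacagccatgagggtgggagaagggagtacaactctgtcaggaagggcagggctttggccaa

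In all, 6 members were lower after RA in wild-type cells: Klk1b5, Egfbp2, Klk1, Klk1b8, Klk1b24 and Klk1b26. The other 8 members stood close to 0. A log2 ratio below 0 is read as lower after RA, which is the likely direction because Cy5 marked the treated cells. Cyp26a1 and Rarb, known targets of RA, had positive ratios, 3.54 and 4.27 for the former and 2.38 and 2.40 for the latter. In the knockout the same 6 genes again had the lowest ratios of the family, but every one of them was nearer to 0 than in V6.5. The ratio compares the treated with the untreated RNA of 1 line. A value nearer to 0 in the knockout may therefore reflect a lower untreated level or a higher treated level, which cannot be told apart from ratios, and the ratio of Kdm6a (-0.39 and -0.16) does not check the knockout.

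Klk1b5, a copy next to Klk1, stood at a log2 ratio of -3.71 in V6.5 against -2.37 in the knockout. Its signal after RA was 7.66% of the untreated signal in V6.5 against 19.4% in the knockout, which is 13.1-fold and 5.15-fold lower. Egfbp2, an epidermal growth factor binding protein, had -3.69 and -2.17, or 7.74% and 22.2% of the untreated signal. These were the lowest and second lowest of all 22485 genes in V6.5, where they ranked 1 and 2 from the bottom, and they ranked 14 and 24 in the knockout. Klk1 itself had -2.69 in V6.5 against -1.84 in the knockout, so that 15.5% and 28.0% of its untreated signal was left. It ranked 5 from the bottom in V6.5 against 56 in the knockout.

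Klk1b8 and Klk1b24 had low ratios in V6.5 and were closer to 0 in the knockout than the genes above. Klk1b8 had -2.45 in V6.5 against -0.82 in the knockout, with 18.3% and 56.6% of the untreated signal left. Klk1b24 had -2.07 and -0.76, with 23.8% and 59.2% left. In the knockout neither reached 2-fold, at 1.77-fold lower for Klk1b8 and 1.69-fold lower for Klk1b24. The knockout ratio of Klk1b8 was 0.34 times its V6.5 ratio on the log2 scale and that of Klk1b24 was 0.37 times. The same proportion was 0.64 in the case of Klk1b5, 0.59 in that of Egfbp2, 0.68 for Klk1 and 0.61 for Klk1b26. Each of these genes except Klk1b26 rested on 1 feature, so these proportions have no error attached.

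Klk1b26, the prorenin-processing copy, was measured by 2 features that disagreed. One had -3.34 in V6.5 against -1.91 in the knockout, and the other had -0.01 and -0.13. Their mean was -1.67 with a standard deviation (SD) between features of 2.36 in V6.5, and -1.02 with an SD of 1.26 in the knockout. Among 61 genes with 2 to 9 features that were at least 2-fold lower in V6.5, the range between features had a median of 0.22. The range of Klk1b26, at 3.33, was the widest of the 61. In the RefSeq table Egfbp2 stands as a synonym of Klk1b26, and its own Entrez number has no entry there, unlike those of the other 13 members. The low Klk1b26 feature and the Egfbp2 feature differed by 0.35 (V6.5) and 0.26 (knockout). The members are paralogs, and how far their features share signal was not tested, so the value of any single copy is uncertain.

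The remaining members had V6.5 ratios between -0.11 and 0.34 and knockout ratios between -0.05 and 0.34. The gamma-renin gene Klk1b16 had 0.00 in V6.5 against -0.02 in the knockout. The growth factor binding protein gene Klk1b22 had 0.13 and 0.14, and Klk1b9, the third of that group, had -0.08 and 0.34. Klk1b21 had -0.11 and 0.02, and Klk1b27 had 0.34 and 0.04. Klk1b1 had -0.11 and -0.05, and the transcribed pseudogene Klk1b7-ps had 0.07 and -0.02. None of these 8 genes reached 2-fold on either array. A ratio near 0 is given both by RNA that stayed level and by a feature with no signal above background, and spot intensities were not used here to separate them.

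Klk1b11 shows the noise of a member near 0, since it was measured by 10 features. In V6.5 they ran from -0.26 through a median of -0.03 to 0.34, with an SD of 0.17. In the knockout they ran from -0.18 through -0.02 to 0.49, with an SD of 0.19. The features of the 2 lines overlapped throughout. The SD was above the median of genes with 2 to 9 features, 0.14 on both arrays. It was further above the medians of 0.084 (V6.5) and 0.090 (knockout) over 387 genes with 10 or more features. Klk1b11 belongs to the latter class. The 6 low members were picked as at least 2-fold lower in V6.5, so their means lay below every Klk1b11 feature there by that choice. Their means also lay below every Klk1b11 feature in the knockout. As single features this does not hold: 1 of the 2 Klk1b26 features, at -0.01 and -0.13, lay within the Klk1b11 range on both arrays.

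**Figure D1:**
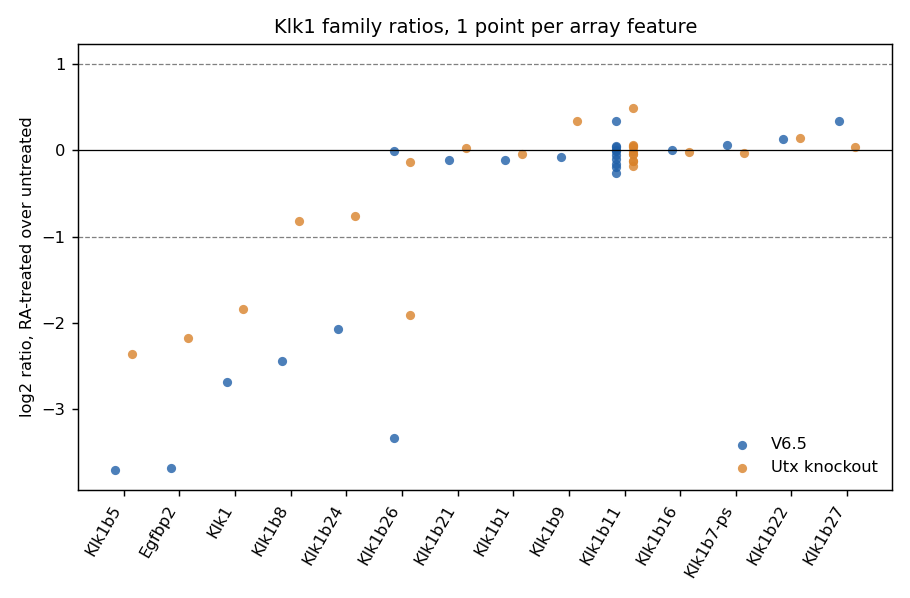
Log2 ratio, RA-treated over untreated (vertical axis) for each array feature of the 14 Klk1 family genes, ordered by their V6.5 mean, with V6.5 in blue and the Utx knockout in orange; dashed lines mark 2-fold. The 5 genes on the left run from -3.71 to -2.07 in V6.5 and from -2.37 to -0.76 in the knockout, Klk1b26 has 1 low feature and 1 near 0 on each array, and the other 8 genes lie near 0.

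The order of the ratios was set beside the median feature SD of 0.14, which is the spread of 1 value and not of a difference of 2 values. In V6.5 the ratios of Klk1b5 and Egfbp2 were 0.01 apart and have no order. The steps from Egfbp2 to Klk1 (1.00) and from Klk1b8 to Klk1b24 (0.38) were wider than that SD. The step from Klk1 to Klk1b8 (0.24) was about the median range between features of 1 gene, 0.22 over 61 low genes. The order of Klk1 and Klk1b8 in V6.5 is therefore not settled. Klk1b26 has no settled place in the order on either array, since its 2 features lay on either side of Klk1b8 and Klk1b24. Leaving it aside, the member next above Klk1b24 in V6.5 was Klk1b21, at -0.11. In the knockout the order of the others was Klk1b5, Egfbp2, Klk1, Klk1b8 and Klk1b24. The knockout gap between Klk1b5 and Egfbp2 was 0.19, less than that median range of 0.22, so their order is not settled. There the gap between Klk1b8 and Klk1b24 was 0.06, within the feature SD, and the gap from Klk1b24 to the next member, Klk1b1, was 0.71. A feature SD covers differences between features on 1 array and not between cultures.

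In V6.5, 6 of 14 members were at least 2-fold lower, where 1.59% of all named genes were, and 0 were at least 2-fold higher, where 2.52% of all were. In the knockout 4 of 14 were at least 2-fold lower, where 1.65% of all were, and 0 were higher, where 2.92% were. The family was chosen on these ratios, so nothing is read from the counts. The median over the 14 members was -0.11 in V6.5 against -0.03 in the knockout, beside -0.02 on both arrays over all named genes. The family median describes neither the low nor the level members, since the 6 low genes had medians of -2.57 and -1.43 and the other 8 had -0.02 and 0.02.

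The knockout ratio lay above the V6.5 ratio in 11 of 14 members, beside 11402 of the 22485 named genes. The difference, knockout minus V6.5, was 1.63 for Klk1b8, 1.52 for Egfbp2, 1.34 for Klk1b5, 1.32 for Klk1b24, 0.85 for Klk1 and 0.65 for the mean of Klk1b26. In folds the largest of these was 3.09 for Klk1b8, and that of Klk1 was 1.80. The ratio in the knockout exceeded that in V6.5 by 2-fold or more for 4 of 14 members, where it did so for 0.583% of all named genes, and for 0 of 14 it was 2-fold or more below. Genes picked for a low ratio on 1 array can lie nearer to 0 on another because of that choice. A closer background is therefore the 358 genes at least 2-fold lower in V6.5, of which 27, or 7.54%, exceeded it by 2-fold or more in the knockout, and 4 of the 27 were family members. Without the family, 23 of the remaining 352 such genes exceeded it by that much, and the median difference over the 352 was 0.18. Of the same 358 genes, 59.8% were also at least 2-fold lower in the knockout, as were 4 of the 6 low members. At a V6.5 ratio of -2 or lower stood 27 genes, 5 of them members. Among these the knockout ratio was at least 2-fold above for 5, which were Klk1b5, Egfbp2, Klk1b8, Klk1b24 and the vesicular nucleotide transporter gene Slc17a9. The cut at -2 was not part of the design, and the family was chosen on the ratios of both arrays. Nothing is therefore read from these counts. None of these differences has a replicate check.

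**Figure D2:**
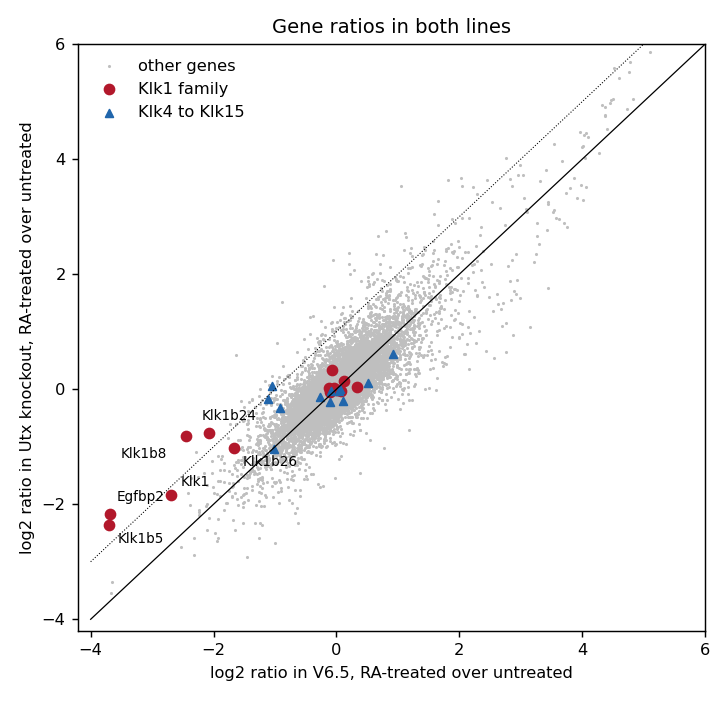
Log2 ratio, RA-treated over untreated, per gene in V6.5 (horizontal axis) and in the Utx knockout (vertical axis), with the Klk1 family as red points, Klk4 to Klk15 as blue triangles and other genes in grey; the solid line marks equal ratios and the dotted line a knockout ratio 2-fold higher. Klk1b5, Egfbp2, Klk1b8 and Klk1b24 lie above the dotted line at the low end, at differences of 1.32 to 1.63, and Klk1 and Klk1b26 lie between the lines.

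The low members were not one block of the cluster. In the order of each gene's lowest RefSeq position, 3 of them, Klk1b24, Klk1b5 and Klk1, are the last measured members and end the cluster. Klk1b8 lies near the other end between Klk1b7-ps and Klk1b1. Klk1b26, low by the mean of 2 features that disagreed, lies in the middle among members near 0. Egfbp2 has no place of its own in that table. The RefSeq model of Klk1b21 spans other members, and its promoter window lies after that of Klk1b27, later than its place in this order. The gene order was used without positions, since no genome build is named for the array.

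The kallikreins of the wider locus, Klk4 to Klk15, encode related secreted proteases of skin, brain and glands, and all 12 were measured, each by 1 feature. In V6.5, 3 of the 12 were at least 2-fold lower, where 1.59% of all named genes were, and 0 were higher, where 2.52% were. In the knockout 1 was lower, where 1.65% of all were, and 0 were higher, where 2.92% were. Klk11 had -1.11 in V6.5 against -0.17 in the knockout. Klk8, a protease known as neuropsin from the hippocampus and the skin, had -1.05 and 0.05, a difference of 1.10 and the only one of the 12 past 2-fold. Klk13 had -1.02 and -1.03, with no shift between the lines beyond the feature SD. Klk10 had -0.92 and -0.33. At the other end Klk5, a protease that acts in the shedding of skin cells, had 0.92 and 0.62 and Klk6 had 0.52 and 0.11. The list medians were -0.10 and -0.08, within 0.1 of those of all genes. The lowest of the 12 in V6.5, Klk11, was nearer to 0 than each of the 6 low Klk1 family members.

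Beyond the kallikreins, the 15 measured genes on each side of the cluster included 18 that are no kallikreins. Of these, 0 reached 2-fold in either direction on either array, with ratios from -0.86 to 0.60 in V6.5 and from -0.57 to 0.78 in the knockout. The difference between the lines passed 2-fold for 1 of them, the B cell factor gene Spib (-0.86 and 0.18), named here after its values were seen. No other measured gene lay between members. The medians of the 18 genes were -0.14 and -0.13. Over all named genes, 1.59% and 1.65% were at least 2-fold lower and 2.52% and 2.92% higher, in V6.5 and the knockout.

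**Figure D3:**
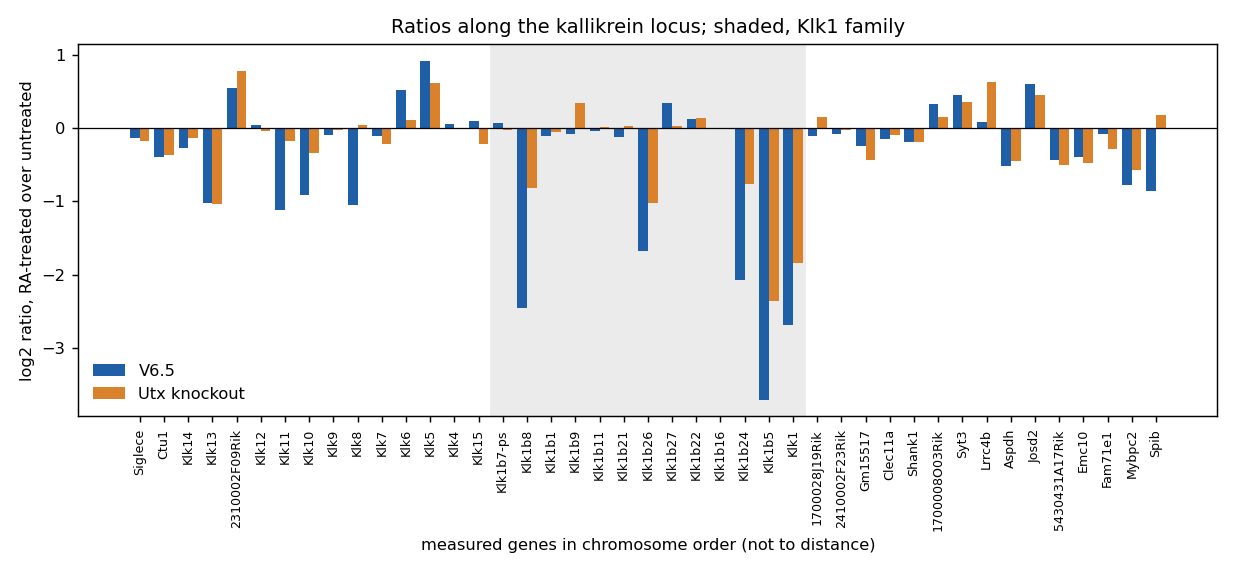
Log2 ratio, RA-treated over untreated (vertical axis) for measured genes in the order of their lowest RefSeq position (horizontal axis, not to distance), with V6.5 in blue, the Utx knockout in orange and the Klk1 family shaded; each bar is 1 gene on 1 array and Egfbp2, with no place in the order, is left out. Klk1b8 and Klk1b26 (the mean of 2 features that disagreed) stand low among members near 0, and Klk1b24, Klk1b5 and Klk1 stand low side by side. Outside the cluster the lowest bars are those of Klk11, Klk8 and Klk13 near -1.

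The promoter windows of the 12 matched members were much alike. Over all 66 pairs, the share of identical bases in the aligned part ran from 76.3% to 97.7%, with a median of 83.5%. The 10 pairs of low members had a median of 81.4%, the 21 pairs of members near 0 had 83.6%, and the 35 mixed pairs had 83.5%. The pair with the highest identity was mixed: Klk1b21 and Klk1b24 shared 97.7% over 265 aligned positions, while their V6.5 ratios were -0.11 and -2.07. Klk1b11 and Klk1b26 shared 91.6%, and Klk1b9 and Klk1b5 shared 87.0%, with V6.5 ratios of -0.08 and -3.71 for the latter pair. Klk1b26 counts as low here by its mean, through 1 of its 2 features. As the printed sequences show, copies with much the same bases before the start thus included low members and members near 0. Pairs share members, and the windows depend on the annotated starts, which differ between copies. The start of Klk1 is set further upstream, and that of Klk1b21 falls before its TTTAAA, which begins at base 5 after it.

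**Figure D4:**
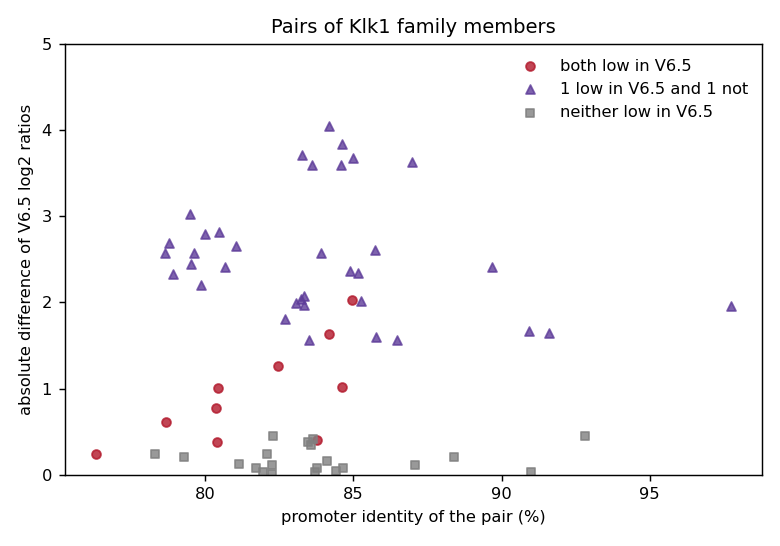
Identity of the aligned promoter windows of 2 members in percent (horizontal axis) against the absolute difference of their V6.5 log2 ratios (vertical axis), 1 point for each of 66 pairs of the 12 members with a window. Mixed pairs of a low member and a member near 0 (triangles) span 78.6% to 97.7% identity, and pairs of low members (circles) span 76.3% to 85.0%.

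A set of 8 motifs was searched on both strands of the windows, and a match is a description of letters only. AGGTCA was in 9 of 12 windows, 4 of 5 of low members and 5 of 7 of the others, beside 16.3% of all 32851 windows in the table. In Klk1b8 it begins 79 bases before the start and in Klk1b5 it begins 201 bases before. CCAAT was in 8 of 12 windows, 4 of 5 and 4 of 7, beside 37.4% of all. TATAAA was in 0 of 12, beside 13.6% of all. TTTAAA, added after the sequences were read, was in 11 of 12, all but that of Klk1, beside 13.2% of all. Because the start of Klk1 is set further upstream, its window may end before the matching bases, and bases past the window were not searched. Matches of different motifs were allowed to overlap. The STAT motif TTCNNNGAA (8.30% of all windows), the E-box CACGTG (7.15%), the AP-1 motif TGACTCA (5.20%) and the GATA motif AGATAA (11.2%) were in 0 of 12. The copies descend from one another, so their shared letters are not independent.

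The genes whose pair of ratios lay nearest to that of Klk1, by Euclidean distance over the 2 arrays and outside the family, were led by Pla2g7, a secreted phospholipase, with -2.42 in V6.5 against -1.80 in the knockout. The glutathione peroxidase gene Gpx2 had -2.37 and -1.55, and Nrp2, a receptor for semaphorins and vascular growth factors, had -2.26 and -1.53. The other 7 of the nearest 10 were Pcolce, Ly6g6d, Gna14, Irak3, Gad1, Lox and Zmynd10, with distances up to 0.69. The other low members lay further away than these, at 1.04 for Klk1b8 to 1.30 for Klk1b26. With 2 values per gene, likeness says only that the ratios are close.

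Kinins are made by kallikreins and removed by peptidases, and renin and angiotensin act against them on blood pressure. Of 19 measured genes of these systems, 0 were at least 2-fold lower on either array, while 3 were higher in V6.5 and 2 in the knockout. Cpm, a carboxypeptidase that trims kinins at the cell surface, had 1.58 in V6.5 against 3.04 in the knockout. The angiotensin receptor gene Agtr1a had 1.58 and 1.96. Dpp4, a peptidase that cuts many small peptides, had 1.14 and 0.99. The list medians were 0.01 and -0.05.

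Among protease inhibitors, 11 of the 16 listed were measured, and 0 reached 2-fold in V6.5. In the knockout 2 were at least 2-fold lower: the protease trap A2m, with -0.53 and -1.55, and the trypsin inhibitor Spink1, with -0.63 and -1.26. Of 10 measured growth factors, receptors and substrates linked to kallikreins, 1 was lower on each array, the matrix protein Fn1 (-1.17 and -1.06). In the same list 1 was higher in V6.5 and 2 were in the knockout. These were Igfbp3 (1.67 and 1.33) and Igfbp5 (-0.09 and 1.16), binding proteins of insulin-like growth factors that are cut by proteases. Of 23 other secreted trypsin-like proteases, 0 were lower and 1 was higher on each array, the testis protease gene Prss50 (1.28 and 1.39). Beside these counts, 1.59% (V6.5) and 1.65% (knockout) of all named genes were at least 2-fold lower, and 2.52% and 2.92% were higher. The V6.5 medians of these lists were -0.15 for inhibitors, -0.12 for growth factors and substrates and -0.04 for other proteases.

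Markers of cells that are known to express the family, or that could be in the culture, were set beside it. Of 11 measured submandibular gland markers, 0 were at least 2-fold lower on either array and 1 was higher on both, the amylase gene Amy1 (1.23 and 1.05). Of 4 measured Leydig cell markers, 0 passed 2-fold on either array. Of 12 fibroblast markers, 7 were at least 2-fold lower on each array, with medians of -1.09 and -1.19, and 0 had a knockout ratio at least 2-fold from that of V6.5. Of 10 ES cell markers, 1 was at least 2-fold lower in V6.5 (Klf4, at -1.65) and 4 in the knockout (Klf4, Fgf4, Tdgf1 and Pou5f1). The ES cell medians were -0.62 and -0.30. Tdgf1 (-0.68 and -2.16) and Fgf4 (-0.64 and -2.07) had knockout ratios at least 2-fold below those of V6.5, and 0 markers lay that far above. The other markers of the list did not all move that way. The median difference of the ES cell list, knockout minus V6.5, was -0.39, with 4 of 10 markers above their V6.5 ratio. Among all named genes, 1.59% (V6.5) and 1.65% (knockout) were at least 2-fold lower, and 2.52% and 2.92% were at least 2-fold higher. Whether a loss of fibroblasts or of undifferentiated cells takes part in the low family ratios was not tested. In bulk RNA, fewer cells that express a gene and less of its RNA per cell cannot be told apart, and ratios do not show whether a marker was present at all.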

How the data were processed

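Total RNA of 2 lines was compared on dual-colour Agilent arrays, 1 per line. The deposited values, 1 column per array, are taken as log2 ratios of Cy5 over Cy3, a likely reading. Both deposited columns average 0, which is read as centring by the authors. The submitters' processing notes name limma with no version; the background correction and normalization were not given in the sources used here. The base is inferred: the largest ratio is 58.3-fold as log2, 352-fold as a natural log and 731680-fold as log10. Features were named through the platform annotation (33026 with 1 symbol, 11371 with none) and averaged per gene. Ratios, differences and counts past 2-fold were computed in Python 3.11.15 with numpy 2.4.6 and pandas 2.3.3. RefSeq windows were aligned with Biopython 1.88, end gaps free. The averaging and counting steps were tested on simulated data. No test was run. The number of arrays limits the precision, and depth does not apply.

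The members, the lists and the alternatives were chosen with earlier results of these data known. Named genes are all members, up to 4 genes past 2-fold in each list, and the 10 genes nearest to Klk1 without placeholder names; Klk5, Klk6, Klk10, Slc17a9 and Spib were named after their values were seen. Protein identity, listed in the design, was not analysed here.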

Additional observations from a re-analysis of the deposited data

Results flagged for a closer look

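Of the genes whose values are given in the text, 12 had ratios of opposite sign in the 2 lines, a difference that was not tested with 1 array per line. For Klk8 the difference, knockout minus V6.5, was 1.10, from -1.05 to 0.05. For Igfbp5 it was 1.25, from -0.09 to 1.16. For Ltb it was 2.21 (-1.63 and 0.59), for Wnt6 1.28 (-1.05 and 0.23), for Rab25 1.25 (-1.25 and 0.00), for Spib 1.04 (-0.86 and 0.18) and for Esrp1 1.02 (-1.02 and 0.01). The other 5 are family members near 0. Klk1b9, measured by 1 feature, differed by 0.42 (-0.08 in V6.5, 0.34 in the knockout). Single Klk1b11 features differed between the lines by up to 0.32, and the SD between them was 0.17 and 0.19 on the 2 arrays. That SD is a spread on 1 array and not of a difference between arrays. The others differed by less than that SD: Klk1b21 by 0.14 (-0.11 and 0.02), Klk1b7-ps by -0.092 (0.07 and -0.02), Klk1b11 by 0.047 (-0.03 and 0.01) and Klk1b16 by -0.018 (0.00 and -0.02).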

How the results depend on the processing

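Of 57 values recomputed under alternative settings, 51 stayed within the margin, which was 1.5 times for a count, the median feature SD of 0.14 for a median ratio and 0.20, that SD combined over both arrays, for the median difference; 6 moved past it and 0 changed sign past it. That count does not measure robustness. The median of features could change only Klk1b11, since no other member has more than 2 features. The margin of 0.14 is also wider than the family medians themselves, -0.11 and -0.03, lie from 0. With a 3-fold threshold, 1 member instead of 4 differed that far between the lines. With only the members measured by 2 or more features, which leaves Klk1b11 and Klk1b26, 1 member was lower in V6.5 against 1 in the knockout, 0 were 2-fold higher in the knockout than in V6.5, and the medians were -0.85 and -0.51. The low members thus rest on 1 feature each. This holds for Klk1b26 too, since only 1 of its 2 features was low. Read as natural logs, the values gave 6 members at least 2-fold lower on each array. Median centring gave 3 lower members in the knockout, Klk1b26 dropping out, and a knockout family median of 0.00. Chosen after seeing the data, counting Egfbp2 with Klk1b26 gave 13 genes, with 5 lower in V6.5, 3 in the knockout and 3 above in the knockout; the merged gene had -2.35 and -1.41. Without the low Klk1b26 feature the same 3 counts were 5, 3 and 4, and without its feature near 0 they were 6, 4 and 5. The median difference was 0.28 and shrank to 0.10 without the low feature and with the feature closest to 0. No paired analysis was possible because each line has 1 array. Signal over background was not used here, so which ratios near 0 come from dim spots is not known.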

Other observations

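Beside the 4 family members and Klk8, the 27 genes at least 2-fold lower in V6.5 whose ratio in the knockout was 2-fold or more above that in V6.5 held 22 others, of which 8 are named here, chosen after their values were seen. Grhl3, a transcription factor of surface ectoderm, had -1.38 in V6.5 against -0.19 in the knockout. Esrp1, an epithelial splicing regulator, had -1.02 and 0.01, and the vesicle trafficking GTPase gene Rab25 had -1.25 and 0.00. Crb3, a polarity protein of the apical membrane, had -1.44 and -0.37. Msln, a surface protein of mesothelium, had -1.64 and -0.60, and the serpin gene Serpinb5 had -1.22 and -0.18. The ligand gene Wnt6 had -1.05 and 0.23. The difference was largest for the lymphotoxin gene Ltb (2.21), with -1.63 in V6.5 against 0.59 in the knockout. The 8 are a choice from the 22, so no shared function is read from them, and none was tested. Each value is from 1 array.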
